A study of Mus musculus with 5 samples.

Results

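Over the Hoxc cluster of mouse dermal fibroblasts, the widest H3K27me3 peak of one E14.5 library reached from before Hoxc13 into Hoxc4. In the other E14.5 library the peak of rank 2 by width covered Hoxc13 to Hoxc9. Past it, separate short peaks lay over parts of Hoxc8 to Hoxc4. At E18.5 peaks lay over the Hoxc13 to Hoxc9 end of the cluster, and none lay over Hoxc8 or at the coding start sites of Hoxc6, Hoxc5 and Hoxc4. The members were the 9 annotated Hoxc genes, Hoxc4, Hoxc5, Hoxc6, Hoxc8, Hoxc9, Hoxc10, Hoxc11, Hoxc12 and Hoxc13, of 39 genes in the 4 Hox clusters and of 55413 annotated genes in all. All 9 were retained, with no filter on low values. They are transcribed from the same strand of chromosome 15 in the order Hoxc13 to Hoxc4, from position 102921103 to 103036852 of build GRCm38, a stretch of 115750 bp. With 10 kb on either side, the stretch measured was chr15:102911103-103046852, or 135750 bp. For each library, the peaks that overlap this stretch were taken, and the covered length, the end of the domain and the length covered within 3000 bp of each start site were determined. The genes were chosen by these same peak positions, so every value of their peaks below is a description and no test was run on it.

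The data are H3K27me3 ChIP-seq of dermal fibroblasts from wild-type skin, with 2 libraries of E14.5 embryos and 2 of E18.5 embryos, each with its own list of broad peaks. No mutant, transgene or treatment enters any of the 4 libraries. The labels give the stages as E14 and E17 and the study's methods as E14.5 and E18.5, and the names in the methods are used here. Before the immunoprecipitation the cells were expanded in culture, and the region of the body is not stated for these cells, while the methods name back skin under histology. The medium, the shearing of the chromatin and the library kit are given differently in the labels and in the methods. No source says whether the 2 libraries of a stage came from separate animals, so the spread between them may be technical. Transcription and chromatin accessibility are not part of these data. An input sample has no peak list and was not analysed here.

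H3K27me3 is the trimethylation of lysine 27 of histone H3, which Polycomb repressive complex 2 deposits and demethylases such as Kdm6b remove. It is associated with the repression of transcription. Hox genes encode homeodomain transcription factors that specify position along the body axis. In each cluster the genes with low numbers act anteriorly and those with high numbers posteriorly, and fibroblasts keep a Hox expression pattern that depends on their place of origin. Hox clusters are classical targets of Polycomb, where the mark covers the silent genes of a cluster as a broad domain with an edge near the active genes.

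The 4 peak lists differed in length, and this bears on all comparisons between the stages. The E14.5 lists held 21546 and 16574 peaks covering 52.80 and 32.08 Mb, and the E18.5 lists held 10429 and 7107 peaks covering 19.996 and 14.337 Mb. The lists hold no read counts, so depth could not be read from them. The methods state a subsampling of wild-type E18.5 samples to the depth of the other samples, and whether it covers these libraries is not clear. A stretch without a peak may carry the mark below the threshold of the peak caller. Marker genes of cell types were looked up for a peak near a start site (at most 3000 bp away). None of 10 dermal fibroblast genes, among them Col1a1, Pdgfra, Twist2 and Dcn, had one in any library. Of 6 keratinocyte genes, 2 (Krt1 and Cdh1) had a peak in all 4 libraries, as did 1 of 4 endothelial genes (Kdr). The other keratinocyte and endothelial genes, among them Krt5, Krt14, Trp63, Pecam1 and Cdh5, had none in any library. Lack of a peak therefore does not single out fibroblasts and cannot check the labelled cell type. Of 4 immune genes, 2 had a peak in each library of E14.5 and none at E18.5. Peaks were found at 3 of 4 muscle genes at E14.5 against 2 at E18.5, and at 4 and 3 of 4 neuronal genes. The fibroblast, keratinocyte and endothelial counts were thus equal at the 2 stages, and the immune, muscle and neuronal counts were lower at E18.5. At Krt1, Cdh1 and Kdr, however, less was covered in either E18.5 library than in either E14.5 library. The part of other cell types in the values below was not tested.

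The sequences at which the E18.5 peaks end are given first, since the position of this edge is the main difference between the stages. The last wide peak ended at 102977210 in the first E18.5 library and at 102977615 in the second, 405 bp apart and both within intron 1 of transcript Hoxc9-201. The sequences are from the RefSeq genome of GRCm38.p6, read on the plus strand, the strand of the Hoxc genes. CG dinucleotides, the substrate of DNA methylation in mammals, are in capitals. The 109 bases of the intron up to the edge of the first library, chr15:102977102-102977210, lay in a peak in all 4 libraries. The 300 bases past it, chr15:102977211-102977510, lay in a peak in each E14.5 library and the second E18.5 library and in no peak of the first.
Hoxc9 intron before the edge: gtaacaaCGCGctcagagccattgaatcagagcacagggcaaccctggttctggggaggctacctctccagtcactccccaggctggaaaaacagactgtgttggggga
Hoxc9 intron past the edge: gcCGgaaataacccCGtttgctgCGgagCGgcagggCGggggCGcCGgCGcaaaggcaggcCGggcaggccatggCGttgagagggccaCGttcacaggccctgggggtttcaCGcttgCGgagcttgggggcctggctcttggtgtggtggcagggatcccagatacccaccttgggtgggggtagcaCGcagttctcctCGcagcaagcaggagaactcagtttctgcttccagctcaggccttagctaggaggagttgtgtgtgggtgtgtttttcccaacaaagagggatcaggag

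The first of these sequences, of 109 bases, held 2 CG dinucleotides and had a GC content of 56.9%. The second, of 300 bases, held 15 CG dinucleotides and had a GC content of 63.0%. The observed over expected CpG ratio, which allows for length and base content, was 0.227 in the first and 0.526 in the second.

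A second feature at E18.5 was a short gap in the peaks at Hoxc10. It extended over 741 bp, chr15:102966206-102966946, in the first library and over 939 bp, chr15:102966056-102966994, in the second. The Hoxc10 start site at 102966796 lay inside the gap in both. The first 300 bases of the gap common to both libraries, chr15:102966206-102966505, are intergenic, held 4 CG dinucleotides and were covered in full in both E14.5 libraries.
Hoxc10 upstream gap: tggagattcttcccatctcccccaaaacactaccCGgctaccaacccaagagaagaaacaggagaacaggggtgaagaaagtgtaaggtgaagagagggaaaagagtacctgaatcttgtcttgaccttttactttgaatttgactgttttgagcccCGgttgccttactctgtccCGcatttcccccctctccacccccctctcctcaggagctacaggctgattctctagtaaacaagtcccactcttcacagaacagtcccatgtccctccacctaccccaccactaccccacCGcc

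Insulator protein CTCF is known to bind within Hox clusters. The stretch was searched on both strands for a 12-base core of its motif, which reads CC, 3 bases of any kind, AGG, 1 base of any kind and GGC. There were 2 matches, at 102921475 in Hoxc13 and at 102974446, 1993 bp before the first annotated Hoxc9 start site. The Hoxc9 match, shown in capitals within chr15:102974416-102974487, lay 2764 bp before the end of the last wide peak of the first E18.5 library.
CTCF core before Hoxc9: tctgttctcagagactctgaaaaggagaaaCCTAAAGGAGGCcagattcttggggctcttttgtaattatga

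Both matches lay in a peak in all 4 libraries, on the side of the cluster that kept its peaks. No match was found in the 69.2 kb from 102977616 to the end of the stretch. The motif is not rare, as 31.0% of protein-coding genes held it within 3000 bp of a coding start site and 2.25% of all 1 kb bins of the genome held it. Binding of the protein was not measured.

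The covered length of the stretch was 131.6 kb in the first E14.5 library and 96.6 kb in the second, or 96.9% and 71.2%. The E18.5 libraries had 65.8 and 65.6 kb covered, which is 48.5% and 48.3%. Both E18.5 values lay below both E14.5 values. The mean was 114 ± 24.7 kb (SD, n = 2) at E14.5 and 65.7 ± 0.188 kb (SD, n = 2) at E18.5, a difference of 48.4 kb, or 42.4% of the E14.5 mean. The E18.5 replicates lay within 0.3 kb of each other, whereas the E14.5 replicates were 34.97 kb apart, so the size of the difference depends mainly on which E14.5 library is taken. Against the second E14.5 library alone it was 30.9 kb, and against the first alone 65.9 kb. In bulk cells, fewer cells with the mark and less of the mark per cell cannot be told apart.

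**Figure D1:**
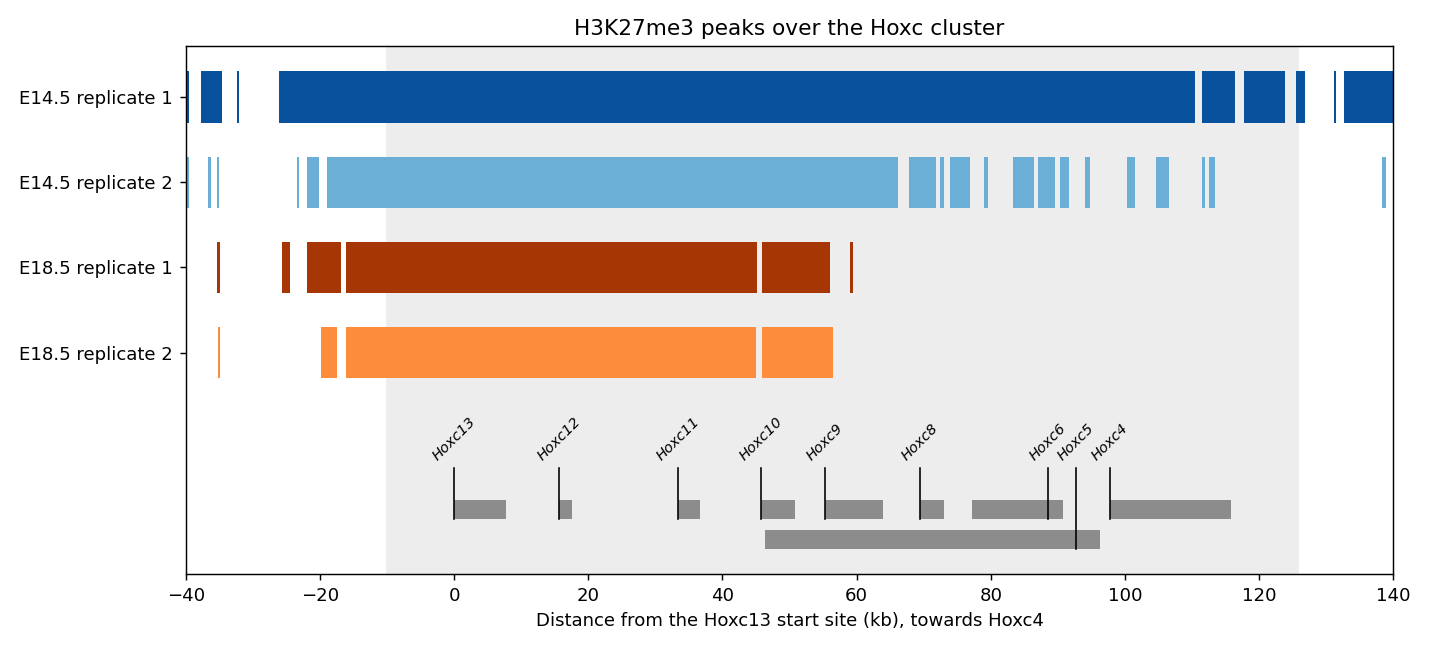
Peaks of each library (coloured bars, 1 row per library) by distance in kb from the Hoxc13 start site, with the grey field marking the 135750 bp measured. Dark bars below are the 9 genes, and each black line marks a gene's first protein-coding start site. The E14.5 bars extend to or towards Hoxc4, whereas the last E18.5 bars end at Hoxc9, and a narrow gap at Hoxc10 is present in both E18.5 rows.

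The largest part of the coverage came from a single peak in each library. In the first E14.5 library this peak was 136.5 kb wide, from 102894952 to 103031496, and was the widest of the list. In the second E14.5 library it was 85.0 kb wide, from 102902187 to 102987233, and ranked 2 by width. The corresponding E18.5 peaks were 61.2 and 61.1 kb wide, from 102905000 to 102966205 and from 102904907 to 102966055, and each ranked 2 in its list. They were followed past the gap at Hoxc10 by peaks of 10.3 and 10.6 kb.

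The fold enrichment of a peak states how many times its read pileup exceeds the local background, as the peak caller averaged it. The widest peak had a fold enrichment of 7.997 and 7.956 in the E14.5 libraries and 5.654 and 5.331 in the E18.5 libraries. It was above 99.4% and 99.3% of the peaks of the E14.5 lists and 99.1% and 97.4% of the peaks of the E18.5 lists. These fold enrichments rank the peak within its own list and were not compared between libraries, for which no common scale is given. The second E18.5 peak, over Hoxc10 and the start of Hoxc9, had a fold enrichment of 4.06 and 4.28, above 83.6% and 79.2% of its list.

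The number of peaks over the stretch was 4 and 13 at E14.5 against 3 and 2 at E18.5. The 12 peaks of the second E14.5 library past its widest peak were between 0.421 and 3.94 kb wide, with a fold enrichment of 3.04 to 4.71 and a −log10 q-value of 2.10 to 7.82. The lists were cut at a q-value of 0.01, and several of these peaks were therefore close to the threshold. In the first E14.5 library the same interval was covered mostly by the single wide peak. Whether the E14.5 mark over Hoxc8 to Hoxc4 is one domain or a row of short ones thus differed between the replicates.

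Where the domain ended was measured by joining peaks of the stretch with gaps of at most 3000 bp and taking the run with the largest covered length. This run ended 71.5 and 24.3 kb past the first Hoxc9 start site in the E14.5 libraries, at 103047901 and 103000738. In the E18.5 libraries it ended 4.20 and 1.18 kb past that start site, at 102980638 and 102977615. The mean end was 47.9 ± 33.3 kb (SD, n = 2) past the site at E14.5 and 2.69 ± 2.14 kb (SD, n = 2) at E18.5. The E14.5 and E18.5 values did not overlap, and the difference of 45.2 kb was larger than the SD of either stage. Without the first E14.5 library the difference was 21.6 kb, and without the second 68.8 kb. The end of the first E18.5 library was set by a small peak of 473 bp, without which it lay 0.772 kb past the Hoxc9 start site. The end of the second E14.5 library was likewise set by a peak of 584 bp, with a −log10 q-value of 2.10. With gaps of at most 1000 bp, the run of that library was its widest peak alone. It then ended 10.8 kb past the Hoxc9 start site, against 0.772 and 1.177 kb in the E18.5 libraries.

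Counting only peaks that overlap the stretch, the other end of the domain, before Hoxc13, differed by 6.38 kb in the mean. It lay 26.2 and 18.9 kb before the Hoxc13 start site at E14.5 against 16.1 and 16.2 kb before it at E18.5, counting peaks that overlap the stretch. The mean was 22.5 ± 5.12 kb (SD, n = 2) and 16.1 ± 0.0658 kb (SD, n = 2). The span of the run, counted in the same way, was 153 and 98.6 kb at E14.5 against 75.6 and 72.7 kb at E18.5. In all libraries but the first of E14.5, further peaks past the margin lay within the gap limit of 3000 bp. With them joined, the run began at -26.2 and -23.4 kb from the Hoxc13 start site at E14.5. At E18.5 it began at -25.7 and -19.9 kb, so the stages overlapped at this end.

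Just outside the stretch, the nearest peak on the Hoxc13 side lay 22.1 and 10.1 kb before it in the E14.5 libraries and 6.80 and 7.41 kb before it in the E18.5 libraries. On the Hoxc4 side the nearest peak lay 5.38 and 12.6 kb past the stretch at E14.5 against 37.2 and 37.6 kb past it at E18.5. The nearest protein-coding genes were Calcoco1, 199 kb before Hoxc13, and Smug1, a uracil-DNA glycosylase gene, 116 kb past Hoxc4. Calcoco1 had no start-site peak in any library. Smug1 had 3253 and 1752 bp covered at E14.5 against 0 bp in both E18.5 libraries.

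The interval between the stretch and Calcoco1 was covered to 45.6% and 23.7% at E14.5 but to 16.7% and 10.5% at E18.5. The interval towards Smug1 was covered to 33.4% and 11.2% at E14.5 but to 2.19% and 1.82% at E18.5. Coverage was thus lower in both E18.5 libraries on both sides of the cluster as well. It was also lower in the second library than in the first at each stage, the order of the total lengths of the lists.

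The peak positions of the 2 E18.5 libraries were contained in those of E14.5. Of the stretch, 96559 bp lay in peaks of both E14.5 libraries and 65169 bp in peaks of both E18.5 libraries, and all of the latter lay in the former. A further 30314 bp lay in peaks of both E14.5 libraries and of neither E18.5 library, and 0 bp showed the opposite. The length shared by the replicates was 73.4% of their union at E14.5 against 98.4% at E18.5.

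The coverage was split by position at the Hoxc8 start site. Before it, over Hoxc13 to Hoxc9, peaks covered 100% and 97.8% at E14.5 against 82.8% and 82.5% at E18.5. From it onward, over Hoxc8 to Hoxc4 and the 10 kb past it, they covered 92.6% and 33.5% at E14.5 and 0% in both E18.5 libraries. The second E14.5 library therefore already had lower coverage on this side than on the other, and the first had nearly the same on both.

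**Figure D2:**
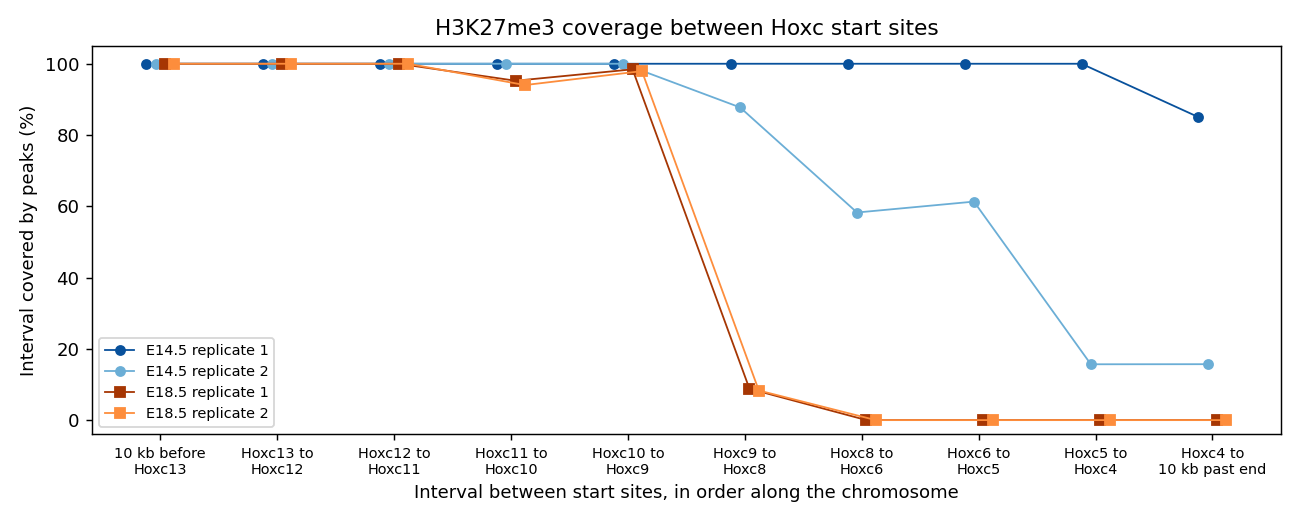
Share of each interval between neighbouring protein-coding start sites that lay in a peak (%), in order along the chromosome, with 1 line per library. From Hoxc9 to Hoxc8 the E18.5 libraries were covered to 8.79% and 8.31%, and past Hoxc8 to 0%, while the second E14.5 library lay between the other E14.5 library and the E18.5 libraries.

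In the intervals between neighbouring start sites, all 4 libraries were covered to 100% from 10 kb before Hoxc13 to the Hoxc11 start site. From Hoxc11 to Hoxc10 the E18.5 libraries were covered to 95.2% and 94.0%, and from Hoxc10 to Hoxc9 to 98.4% and 97.9%, with the gap at the Hoxc10 start site on the border. From Hoxc9 to Hoxc8 coverage was 100% and 87.7% at E14.5 against 8.79% and 8.31% at E18.5, and at E18.5 no other pair of neighbouring intervals differed as much as this interval and the one before it. From Hoxc8 to Hoxc6 it was 100% and 58.3% at E14.5, and from Hoxc5 to Hoxc4 100% and 15.7%, with 0% at E18.5 in both.

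Each gene was then described by the length covered within 3000 bp of its annotated start sites, where overlapping windows were merged. All 9 Hoxc genes had a start-site peak in each library of E14.5, and 3 of the 9, Hoxc4, Hoxc6 and Hoxc8, had none in either E18.5 library. Of all 6441 genes so marked at E14.5, 1615 (25.1%) had none at E18.5. For 6 of the 9 genes less was covered in either E18.5 library than in either E14.5 library, against 5277 of the 6441 (81.9%). The rule that chose the genes used these peaks, and nothing is read from the counts. With each list reduced to its top peaks of equal total length, only Hoxc6 had a peak in each E14.5 library and none at E18.5, since Hoxc4 and Hoxc8 were then no longer marked in both E14.5 libraries. The median share of the windows that was covered was 32.72% at E14.5 against 11.01% at E18.5 over the 6441 genes.

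**Figure D3:**
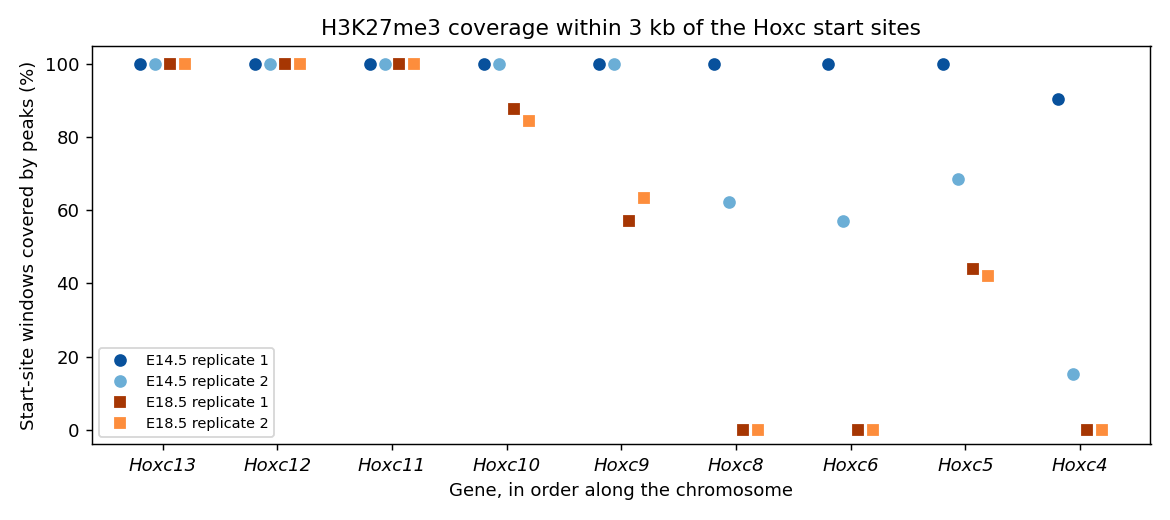
Share of the windows within 3000 bp of a gene's start sites that lay in peaks (%), by gene in order along the chromosome, with 1 point per library (circles E14.5, squares E18.5). Hoxc13, Hoxc12 and Hoxc11 were at 100% in all 4 libraries, and Hoxc8, Hoxc6 and Hoxc4 were at 0% in both E18.5 libraries.

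Hoxc13, Hoxc12 and Hoxc11, the most posterior genes of the cluster, were covered over all 6001 bp of their windows in each of the 4 libraries, and their gene bodies were covered in full as well. Hoxc13 is required for the formation of the hair shaft and nails. No difference between the libraries can be seen at these genes, where the measure is at its upper limit. How much of the mark lies within the peaks was not measured.

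Hoxc10, with 1 annotated start site, had 6001 bp covered in both E14.5 libraries and 5260 and 5062 bp at E18.5, equal to 87.7% and 84.4% of its window. It was the member with the smallest difference among those that were shorter, 840 bp. The missing part was the gap shown above, so that the start site itself lay in a peak in each E14.5 library and in neither E18.5 library. The nearest peak was 0.151 and 0.199 kb away. The body of the gene was covered to 97.0% and 96.1% at E18.5.

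Hoxc9 lay at the edge. Its windows, 6594 bp around 2 start sites, were covered in full at E14.5 but over 3772 and 4177 bp at E18.5, or 57.2% and 63.3%. Both start sites lay in a peak in all 4 libraries. The gene body was covered to 100% in both E14.5 libraries and to 14.4% and 13.6% at E18.5, since the peaks ended in the first intron of Hoxc9-201.

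Hoxc8, which patterns the thoracic skeleton and motor neurons of the brachial cord, had 7283 and 4531 bp covered at E14.5, or 100% and 62.2% of its windows, and 0 bp in both E18.5 libraries. The nearest E18.5 peak to its protein-coding start site at 102990607 was 9.969 and 12.992 kb away. At E14.5 this start site lay in a peak in both libraries.

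Hoxc6 has 3 annotated start sites, of which that at 103009573 is protein-coding. Its windows were covered over 14274 and 8142 bp at E14.5, or 100% and 57.0%, and over 0 bp at E18.5. The protein-coding start site lay in a peak in both E14.5 libraries. At E18.5 the nearest peak to it was 28.9 and 32.0 kb away.

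Hoxc5 had 12002 and 8222 bp covered at E14.5 against 5260 and 5062 bp at E18.5. All of its E18.5 coverage came from the start site of the noncoding transcript Hoxc5-202 at 102967443, which lies within the first exon of Hoxc10. At the protein-coding start site, 103013815, the length covered was 6001 and 2221 bp at E14.5 against 0 bp in both E18.5 libraries. Counted by protein-coding start sites alone, the genes without a peak at E18.5 were 4 of the 9, Hoxc4, Hoxc5, Hoxc6 and Hoxc8.

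Hoxc4 had the largest spread between the E14.5 libraries, with 10863 bp covered in the first and 1814 bp in the second, or 90.5% and 15.1% of its windows. Both E18.5 libraries had 0 bp. In the second E14.5 library the start site of Hoxc4-201 at 103034395 lay in a peak of 822 bp, and that of Hoxc4-202 at 103018934 lay 2.43 kb from the nearest peak. The mean E14.5 value was 6339 ± 6399 bp (SD, n = 2), so the difference from E18.5 was smaller than the spread between the E14.5 replicates. Of the 3 genes without a peak at E18.5, Hoxc4 thus rested on the least coverage in the second E14.5 library.

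The stretch also holds noncoding genes. Hotair, a long noncoding RNA transcribed from the opposite strand between Hoxc12 and Hoxc11, had 6001 bp of its window covered in all 4 libraries, as did 4 annotated short RNA genes near it. Mir196a-2, a microRNA gene between Hoxc10 and Hoxc9, also had 6001 bp covered in all 4 libraries. Mir615, in the Hoxc5 intron, had 6001 and 1700 bp covered at E14.5 against 0 bp in both E18.5 libraries. At E18.5 each of the 2 microRNA genes was thus in the state of its end of the cluster. Their mature products differ in seed, which is bases 2 to 8 of the microRNA and is shown in capitals (RefSeq, GRCm38.p6). The miR-196 sequences share 1 seed, AGGUAGU, across the Hoxa, Hoxb and Hoxc clusters.
miR-196a-5p (Mir196a-2, and Mir196a-1 of the Hoxb cluster): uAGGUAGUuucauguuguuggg
miR-196b-5p (Mir196b of the Hoxa cluster): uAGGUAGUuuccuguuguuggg
miR-615-5p (Mir615): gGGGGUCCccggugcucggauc
miR-615-3p (Mir615): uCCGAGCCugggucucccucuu

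The other genes of miR-196, Mir196b in Hoxa and Mir196a-1 in Hoxb, were covered over 6001 bp in all 4 libraries and over 6001, 4739, 4301 and 4926 bp. Hox messenger RNAs, Hoxc8 among them, are known targets of miR-196. Among the protein-coding transcripts of the 9 Hoxc genes, the sense-strand match to the seed, ACTACCT, was found only in Hoxc8-201, at 2 places 135 and 892 bases after the stop codon. Of 4552 protein-coding transcripts within 10% of its length, 11.2% held a match. The 2 sites, with the match in capitals, are 22 bases each.
Hoxc8 site 1: cactcacaactctaACTACCTg
Hoxc8 site 2: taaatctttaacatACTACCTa

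These sites were found by their letters alone, and neither the microRNA nor the transcript was measured.

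The base composition of the 2 ends of the cluster was compared at the E18.5 edge. The part that was kept, up to 102977210, had a GC content of 48.3% and an observed over expected CpG ratio of 0.373. The part from 102977616 onward had a GC content of 48.5% and a CpG ratio of 0.310. By the windows around protein-coding start sites, Hoxc12 had the highest CpG ratio of the members, above 96.2% of protein-coding genes, followed by Hoxc13 at 89.6%, Hoxc11 at 89.2% and Hoxc5 at 89.0%. Hoxc4 had the lowest, above 34.1%. Among the 4 genes without a peak at their coding start site at E18.5 the percentile ranged from 34.1% to 89.0%, and among the other 5 from 59.6% to 96.2%, so the ranges overlapped.

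The other Hox clusters were measured in the same way, each from its first to its last gene with 10 kb on either side. Hoxa was covered to 89.5% and 78.8% at E14.5 against 72.2% and 62.5% at E18.5. Hoxb was covered to 92.9% and 63.4% at E14.5 against 40.3% and 36.5% at E18.5, and Hoxd to 90.9% and 66.6% at E14.5 against 36.7% and 36.2% at E18.5. In all 4 clusters both E18.5 libraries were below both E14.5 libraries. The mean covered length was shorter at E18.5 by 19.98% in Hoxa, 50.9% in Hoxb, 42.4% in Hoxc and 53.7% in Hoxd, so that Hoxc lay between Hoxa and the other two.

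**Figure D4:**
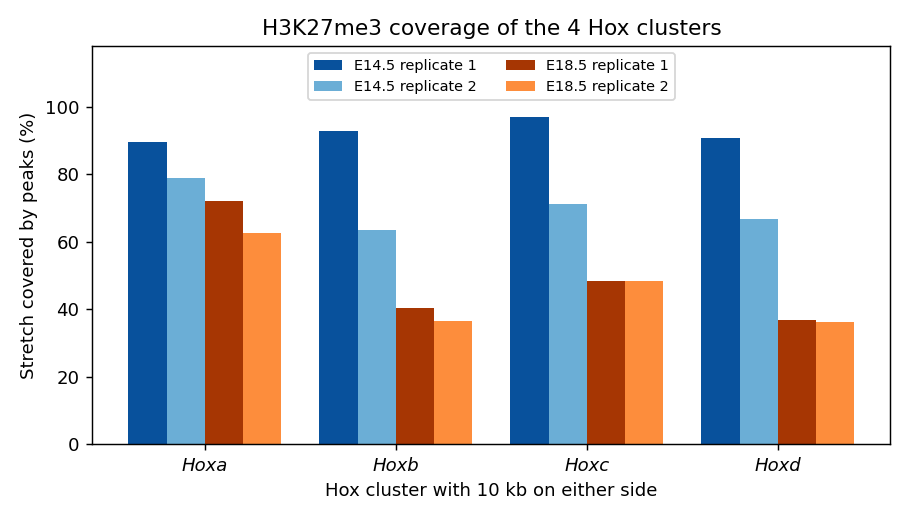
Share of each Hox cluster, with 10 kb on either side, that lay in peaks (%), with 1 bar per library. In all 4 clusters the E18.5 bars are lower than the E14.5 bars, and in Hoxc and Hoxd the 2 E18.5 bars are nearly equal.

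The clusters differed in where the peaks were absent at E18.5. In Hoxc, 3 of the 9 genes marked at E14.5 had none at E18.5, as did 3 of 9 in Hoxd (Hoxd3, Hoxd4 and Hoxd8). In Hoxa it was 0 of 11 and in Hoxb 0 of 9. In Hoxc and Hoxd all of these genes belonged to paralog groups 1 to 8, being 3 of 4 genes there in each cluster. In groups 9 to 13 it was 0 of 5 genes in each of the 2 clusters. The remaining genes of groups 1 to 8 were Hoxc5, with E18.5 peaks only at its noncoding start site, and Hoxd1. Hoxd1, the most anterior gene of its cluster, was covered to 42.9% and 27.1% at E18.5. Over all genes marked at E14.5 the share with none at E18.5 was 25.1%. No test was made of these counts, as the clusters were chosen with their peaks known.

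Paralogs are the genes of the same number in different clusters, which arose by duplication of an ancestral cluster. In group 8, Hoxb8 had 6821 and 5232 bp covered at E14.5 against 4615 and 4400 bp at E18.5. Hoxd8 had 5155 and 2086 bp at E14.5 against 0 bp in both E18.5 libraries, as Hoxc8 did. In group 6, Hoxa6 had 6001 and 3133 bp and Hoxb6 had 7880 and 8325 bp covered at E18.5, against 0 bp for Hoxc6 in both libraries.

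In group 4, Hoxa4 had 4147 and 4210 bp covered at E18.5 and Hoxb4 had 0 and 1042 bp, whereas Hoxc4 and Hoxd4 had 0 bp in both libraries. In group 5, Hoxa5 and Hoxb5 kept 3914 and 3449 bp and 1126 and 549 bp. In group 9 the share covered at E18.5 ranged from 42.2% in Hoxd9 to 92.3% in Hoxa9, with Hoxc9 at 57.2% and 63.3%. In groups 12 and 13 coverage at E18.5 was 100% in both libraries for Hoxc12, Hoxd12, Hoxb13, Hoxc13 and Hoxd13, and 100% and 84.9% for Hoxa13.

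**Figure D5:**
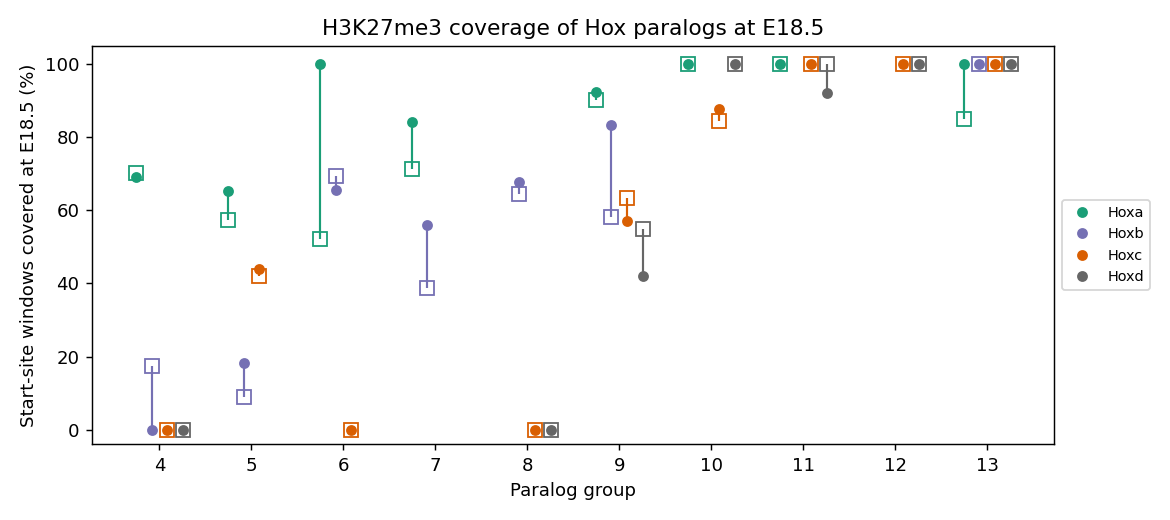
Share of the start site windows that lay in peaks at E18.5 (%), by paralog group and cluster, with a filled circle for the first E18.5 library and an open square for the second, joined by a line. Hoxc genes of groups 4, 6 and 8 are at 0% in both libraries, as are Hoxd genes of groups 4 and 8, while Hoxa genes lie at 52.2% or above.

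Against other wide domains, Hoxc was set beside every run of peaks common to both E14.5 libraries that spanned at least 50 kb after joining gaps of at most 3000 bp. There were 15 such domains, and that of Hoxc was the widest, at 103 kb. Within it, 95.3 kb lay in peaks of both E14.5 libraries. The share of this length that lay in peaks at E18.5 was 79.6% and 76.9%, a mean of 78.3%, which was also the median of the 15. The range was from 53.6% at Hoxb to 98.4%. This common run ended at 103000738, so most of the Hoxc6 to Hoxc4 part, where the second E14.5 library held only separate short peaks, did not count in it.

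Hox proteins bind DNA with cofactors of the TALE class of homeodomain proteins. Among the genes of these cofactors, Pknox2 had a peak in all 4 libraries, with 13203, 12210, 11873 and 10571 bp covered. Pbx4 and Meis3 had a peak in 1 E14.5 library each. Pbx2, Pbx3, Meis1, Meis2 and Pknox1 had no peak in any library. Of 4 genes that act on Hox expression along the axis, Cdx1, Cdx2 and Cdx4 had a peak in all 4 libraries, with 6001 bp covered in each at Cdx2. Gdf11, a TGF-beta family ligand that sets the trunk to tail transition, had 1764 and 1236 bp covered at E14.5 against 0 bp in both E18.5 libraries.

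Outside the Hox clusters, the protein-coding genes whose covered shares in the 4 libraries were nearest to the mean of Hoxc4, Hoxc5 and Hoxc6 were Rbp4, Syt3, Kcna5, Syt10 and Slfn5. Hoxc4 and Hoxc6 were at 0% in both E18.5 libraries, so the E18.5 value of this mean comes from Hoxc5 alone, at its noncoding start site within Hoxc10. The mean of the 3 Hoxc genes was 96.8% and 46.9% at E14.5 against 14.6% and 14.1% at E18.5. The Euclidean distance to it over the 4 libraries, with shares between 0 and 1, was 0.107 for Rbp4, the plasma carrier of retinol, and 0.109 for Syt3, a synaptotagmin. It was 0.132 for Kcna5, a voltage-gated potassium channel, 0.139 for Syt10 and 0.155 for Slfn5. Rbp4 was covered to 100% and 36.7% at E14.5 but to 13.9% and 13.3% at E18.5.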

How the data were processed

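Peaks were analysed as the authors deposited them, 1 broad peak list for each of 4 H3K27me3 libraries. Per the submitters' processing notes and the methods, the authors aligned reads with Bowtie2 2.3.5.1 to mm10 and called peaks with MACS2 2.2.7.1 at a broad q-value of 0.01, without pooling replicates. The control for the call is not given in the sources used here. The deposited lists hold a fold enrichment (ratio) per peak with its −log10 q-value and −log10 p-value, and no read counts. The methods state that reads of wild-type E18.5 samples were subsampled to the depth of other samples, and whether this covers these libraries is not clear.

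Covered lengths were computed in Python 3.11.15 with pandas 2.3.3 and checked on simulated data, with GENCODE vM21 genes on GRCm38 (chromosomes 1 to 19, X and Y), windows of 3000 bp and a margin of 10000 bp. The members and lists were chosen with earlier results of these data known. Genes named are the 9 members, their neighbours, paralogs, cofactors, axial regulators and the 5 genes nearest in pattern to Hoxc4, Hoxc5 and Hoxc6. A promoter sequence was held for 1 of the 9 members, Hoxc4. A marker list and a cofactor gene are not reported here. Alternatives are given in the closing section.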

Additional observations from a re-analysis of the deposited data

How the results depend on the processing

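The 4 summary values of the cluster, 2 differences in length and 2 gene counts, were recomputed under 18 settings, giving 49 values. The settings were stricter peak thresholds, a minimum width, lists cut to 7107 top peaks or to 14.3 Mb of top peaks each, other windows, margins and gaps, and each library left out in turn. The differences in length kept their direction in every setting where they were computed. A gene count cannot be negative and so had no direction to reverse. A length counted as moved past the pooled SD of the replicates (17.5 kb for the covered length and 23.6 kb for the domain end) and a count past 1.5 times. With 2 libraries a stage, leaving 1 out cannot shift a length by more than this SD. The rule therefore could not call a length moved in those settings, and their stability is not read from it. By this rule 1 value moved: with lists of equal covered length, 1 gene (Hoxc6) in place of 3 was marked in each E14.5 library and without a peak at E18.5, and in that setting the E14.5 lists hold fewer peaks by construction. The difference in covered length was then 34.3 kb, and 4 genes in place of 6 were shorter. At a −log10 q-value of at least 5, Hoxc4 dropped out of the genes with E14.5 peaks only, and the peak over Hoxc10 and Hoxc9 was lost in the second E18.5 library. Leaving out 1 library in turn, the difference in covered length ranged from 30.9 kb (without the first E14.5 library) to 65.9 kb (without the second), and that of the domain end from 21.6 to 68.8 kb, with 3 and 6 genes in each case. Over all settings the genes marked in E14.5 and without a peak at E18.5 numbered between 1 and 4, and the shorter ones between 4 and 6. With gaps of at most 10000 bp the domain ends differed by 62.1 kb, and with gaps of at most 1000 bp by 32.0 kb. No paired analysis was possible because no result comes from a test.

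With 2 libraries a stage, a depth that cannot be read from the lists and E14.5 lists that are longer throughout, a lower amount of the mark and a lower sensitivity of the E18.5 peak calls cannot be told apart at the Hoxc4 side. Absence of a peak is not absence of the mark.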
